A study of Mus musculus with 6 samples.

Results

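Macrophage genes of the liver were examined in a map of open chromatin. The genes were Adgre1, Clec4f, Vsig4, Timd4, Marco, Cd68, Spi1, Csf1r, C1qa and Trem2, 10 of the 21887 protein-coding genes that RefSeq places on the chromosomes of the map. They were chosen for their known role in Kupffer cells and other macrophages, with earlier results of these data known. An accessible interval was assigned to a gene where it overlapped the RefSeq span or the 10 kb to either side by at least 1 bp. This gave 22 of the 120905 intervals, or 0.0182%, and no interval was assigned to more than 1 of the 10 genes.

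Per the labels, the map came from ATAC-seq, in which a transposase cuts open DNA and inserts sequencing adapters, on livers of wild-type males that had eaten a high-fat diet. The strains were C57BL/6J with 3 libraries and 129S1/SvImJ with 3, and all 6 libraries shared the diet, sex and genotype. The labels give no age, do not say whether replicates were separate animals, and name the transposed cells by an abbreviation, LMs, that they do not explain. An antibody entry naming Esrrg also stands in each library's labels. The intervals of both strains were deposited as 1 combined list of positions on mm10, without a score, a read count or a mark of strain or library. Strains were therefore not compared, no value below has a replicate error, and the depth behind each interval is unknown. Whether whole liver or a fraction of its cells was transposed is not clear from the labels. A gene closed in its cells and a gene open in too few cells to be called cannot be told apart in such a list. Intervals were 201 to 401 bp wide, with a median of 203 bp.

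Kupffer cells are the resident macrophages of the liver and sit in the sinusoids, where they take up bacteria, dying cells and spent red cells from portal blood. Their identity rests on the transcription factor PU.1, which binds and opens enhancers of myeloid genes, and their survival on the receptor for colony stimulating factor. In obesity and steatohepatitis, resident cells are joined by macrophages from blood monocytes, some of which express the lipid receptor TREM2.

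Open sites near start sites were seen at Timd4 and Cd68, and their promoter sequences are shown for that reason beside those of Marco, whose interval lay just past the promoter, and of Vsig4, which had none nearby. RefSeq promoter windows of GRCm38.p6 (the mm10 build), which run from 250 bases before to 50 bases after a start site, were matched for 6 of the 10 genes, namely Clec4f, Vsig4, Timd4, Marco, Cd68 and Trem2. Each line gives the 250 bases before the start, 5′ to 3′ on the gene's own strand, in lower case. Capitals mark the PU.1 core GAGGAA or its reverse complement TTCCTC. The windows lie at chr11:46810549-46810798 on the plus strand for Timd4, and on the minus strand at chr11:69666171-69666420 for Cd68, chr1:120505025-120505274 for Marco and chrX:96293439-96293688 for Vsig4.
Timd4: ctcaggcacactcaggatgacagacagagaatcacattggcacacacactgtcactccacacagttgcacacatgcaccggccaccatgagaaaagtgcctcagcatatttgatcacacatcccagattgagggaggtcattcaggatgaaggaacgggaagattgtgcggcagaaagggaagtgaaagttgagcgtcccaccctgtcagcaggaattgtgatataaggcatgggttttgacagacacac
Cd68: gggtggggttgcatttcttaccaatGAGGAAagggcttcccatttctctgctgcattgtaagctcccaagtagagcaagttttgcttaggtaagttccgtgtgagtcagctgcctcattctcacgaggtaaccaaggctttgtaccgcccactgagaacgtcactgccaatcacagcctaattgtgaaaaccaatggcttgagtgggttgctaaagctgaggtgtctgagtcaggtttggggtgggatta
Marco: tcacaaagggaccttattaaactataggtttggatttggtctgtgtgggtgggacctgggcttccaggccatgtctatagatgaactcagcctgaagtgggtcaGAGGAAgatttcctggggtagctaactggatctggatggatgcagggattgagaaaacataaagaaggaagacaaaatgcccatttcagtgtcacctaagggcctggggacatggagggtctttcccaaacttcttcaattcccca
Vsig4: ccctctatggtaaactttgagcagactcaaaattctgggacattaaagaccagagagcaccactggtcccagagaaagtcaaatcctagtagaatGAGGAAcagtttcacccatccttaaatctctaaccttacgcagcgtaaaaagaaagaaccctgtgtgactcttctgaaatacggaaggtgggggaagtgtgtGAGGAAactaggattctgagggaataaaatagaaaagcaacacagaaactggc

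An interval covered 201 of the 250 bases shown for Timd4 and 200 of those for Cd68. The full 300-base windows of these 2 genes were the only ones of the 6 that an interval overlapped, where 37.0% of the 32851 windows in the table were overlapped. In Marco the interval ended 8 bp from the window, inside the gene, and for Clec4f, Vsig4 and Trem2 the nearest interval was 17145, 36188 and 9007 bp from the window. GAGGAA or TTCCTC stood in the 250 bases of Cd68, Marco, Trem2 and, with 2 copies, Vsig4, but not in those of Timd4 and Clec4f. Over all windows, 23.3% held it in the 250 bases on either strand. In Cd68 the core began 225 bases before the start and lay under the interval, whereas in Marco (146 bases before), Trem2 (40) and Vsig4 (155 and 53) no interval covered it. The general ETS core GGAA, which is part of GAGGAA and was also searched as TTCC, was in all 6 windows and in 93.4% of all windows. Among all windows with an interval 21.9% held GAGGAA, and among those without one 24.0% did.

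Across the 10 genes, 8 had at least 1 interval within 10 kb, beside 83.9% of protein-coding genes. Only 4 genes, Timd4, Marco, Spi1 and Csf1r, had an interval inside the span (69.1% of protein-coding genes), and 4 genes, Timd4, Marco, Cd68 and Spi1, had an interval within 1 kb of an end (61.5%). The median was 2 intervals per macrophage gene and 3 per protein-coding gene, although the macrophage genes were longer, with a median of 28 kb against 17.2 kb. Inside the spans the medians were 0 and 1. Of the 22 intervals, 10 were inside a gene and 12 in the flanks, and 5 were centred within 1 kb of an end.

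**Figure D1:**
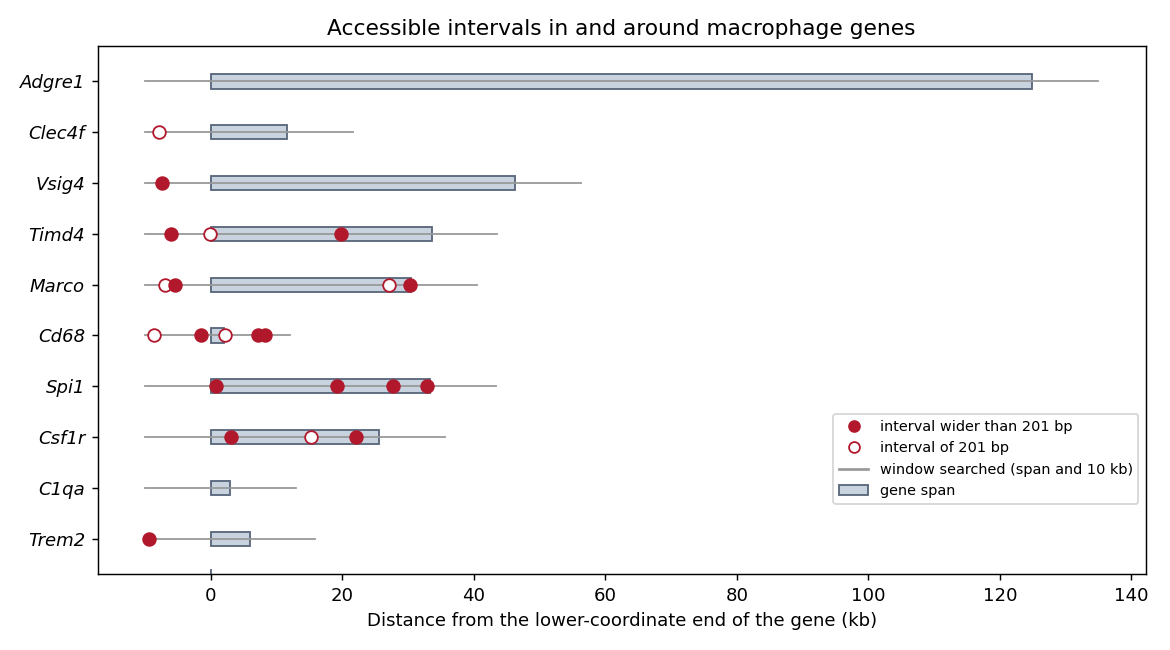
Position of each accessible interval (points) relative to the lower-coordinate end of each gene in kb, with the gene span as a bar and the window searched as a line; points mark centres and are not to scale in width. Within the window searched, Spi1 and Csf1r carried all their intervals inside the gene, Cd68 carried its 5 outside it, and Adgre1 and C1qa had none.

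Within the 10 kb window, the lineage regulators carried their open sites inside the gene. Spi1, which encodes PU.1 and spans 33.4 kb of chromosome 2 (91082374 to 91115759), had 4 intervals, and each lay in the span. A 250 bp interval at 91082948 to 91083197 was centred 698 bp inside the lower-coordinate end, and one of 249 bp at 91115103 to 91115351 was centred 532 bp inside the upper one. The others, 202 bp at 91101492 to 91101693 and 211 bp at 91109939 to 91110149, were 14.2 and 5.71 kb from the upper end. Spi1 was thus the only one of the 10 genes with an interval at both ends. The comparison was with 2433 protein-coding genes of similar length, where the shorter of the pair is at least 0.8 times the longer. Of these, 24.9% had as many intervals inside the span or more. With the 10 kb flanks included, their median was 4, the number Spi1 had, and 51.6% had as many or more. With 50 kb to either side, Spi1 had 8 intervals, and 46.7% of similar-length genes had no more.

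Csf1r encodes the receptor for colony stimulating factor 1, on which Kupffer cells depend. It spans 25.6 kb of chromosome 18 (61105572 to 61131139) and had 3 intervals, which were likewise inside the gene. The widest of the 22 intervals was here, 334 bp at 61127397 to 61127730 and 3.58 kb inside the upper end. A 230 bp interval at 61108466 to 61108695 lay 3.01 kb inside the lower end. The remaining interval, 201 bp at 61120647 to 61120847, also overlapped the non-coding gene Gm52352. No interval reached 1 kb from an end, and 31.2% of 2764 similar-length genes had as many intervals inside the span or more. With the 10 kb flanks included, their median was 3, the number Csf1r had, and 61.0% had as many or more. With 50 kb to either side, Csf1r had 6 intervals, and 35.1% of similar-length genes had no more.

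The receptors for dying cells and particles differed among themselves. Timd4, the phosphatidylserine receptor that marks long-lived Kupffer cells, spans 33.5 kb of chromosome 11 (46810786 to 46844333, plus strand) and had 3 intervals. The 201 bp interval at 46810552 to 46810752 was the one over the promoter, centred 134 bp before the lower end. A 285 bp interval at 46830373 to 46830657 lay inside the gene, 13.8 kb from its upper end, and a 228 bp interval at 46804534 to 46804761 lay 6.14 kb before the gene within the non-coding gene Gm39817. Genes of this length had a median of 4 intervals (quartiles 2 and 5), and 48.5% of the 2439 had no more than Timd4.

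Marco, a scavenger receptor that binds bacteria, spans 30.5 kb of chromosome 1 (120474538 to 120505024, minus strand) and had 4 intervals. Its upper-coordinate end is the start, and a 244 bp interval at 120504724 to 120504967 was centred 179 bp inside it. A 201 bp interval at 120501566 to 120501766 followed 3.36 kb inside the same end. Beyond the other end, a 211 bp and a 201 bp interval were centred 5.44 and 7.05 kb outside the gene, at 120468993 to 120469203 and 120467392 to 120467592. The median of 2559 similar-length genes was 3 (quartiles 2 and 5).

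Vsig4, the complement receptor that lets Kupffer cells take up C3-coated bacteria, spans 46.2 kb of chromosome X (96247201 to 96293438, minus strand) without an interval inside. Its only interval, 216 bp at 96239618 to 96239833, was centred 7.48 kb beyond the lower end, on the far side from the start. Similar-length genes had a median of 4 (quartiles 3 and 6). Of the 2072 such genes, 13.4% had no more than 1 interval and 9.99% had none inside the span.

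Trem2, the lipid-sensing receptor of macrophages in fatty tissue, spans 5.88 kb of chromosome 17 (48346401 to 48352276, plus strand). Its only interval, 241 bp at 48336904 to 48337144, was centred 9.38 kb before the start side of the gene, near the limit of the window. The median of 1745 similar-length genes was 2, and 37.3% of them had no more than 1 interval.

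Among surface markers of Kupffer cells, Clec4f had 1 interval and Adgre1 none, beside the 3 of Timd4 and the 4 of Marco. Clec4f, a galactose-binding lectin that rodents express in Kupffer cells, spans 11.6 kb of chromosome 6 (83644542 to 83656116, minus strand). A single 201 bp interval at 83636537 to 83636737 was centred 7.91 kb beyond its lower end, which is not the start. The median of 2352 similar-length genes was 3, and 27.8% had no more than 1. With 50 kb to either side, Clec4f had 9 intervals, and 62.8% of similar-length genes had no more.

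Adgre1 encodes F4/80, the adhesion receptor by which mouse macrophages are commonly stained. It is the longest of the 10 genes, at 125 kb of chromosome 17 (57358581 to 57483529), and no interval lay in the gene or within 10 kb. The nearest, 230 bp at 57347045 to 57347274, ended 11.3 kb before the lower end, and the next on the upper side began 286 kb away. Genes of its length had a median of 9 intervals (quartiles 5 and 13), and 1.71% of 1054 had none. Of the 1836 protein-coding genes at least as long, 25 (1.36%) had none.

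The stretch without an interval around Adgre1 was 422 kb long and held 1 other whole protein-coding gene, Vmn2r120, of the vomeronasal receptor family. Stretches at least as long held 4.78% of protein-coding genes, while the median distance between neighbouring intervals of the list was 10.3 kb. Why the list has no interval there was not tested.

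C1qa, which encodes the A chain of the complement component C1q, a product of tissue macrophages, also had no interval within 10 kb. It spans 2.93 kb of chromosome 4 (136895916 to 136898844), and 24.6% of 1084 genes of similar length had none either. With 50 kb to either side C1qa still had none, as had 9.69% of such genes. The nearest interval was 82.7 kb beyond the upper end and the nearest on the lower side 293 kb away. The interval-free stretch of 379 kb held 7 protein-coding genes, which were C1qa, its neighbours C1qb and C1qc, the Eph receptor genes Ephb2 and Epha8, Tex46 and Lactbl1. In such stretches, or longer ones, lay 5.28% of protein-coding genes.

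Cd68 had the most intervals of the 10 genes, and most of them lay in its neighbours. It encodes a lysosomal glycoprotein of macrophages and is the shortest of the 10, with 1.96 kb of chromosome 11 (69664213 to 69666170, minus strand). Only the 201 bp interval at 69666221 to 69666421, centred 151 bp outside the upper-coordinate end, had Cd68 as its nearest protein-coding gene. The 205 bp interval at 69662595 to 69662799 was centred 48 bp from an end of Mpdu1, a gene of dolichol-linked glycosylation, and the 202 bp interval at 69672340 to 69672541 was centred 17 bp from an end of Eif4a1, the translation initiation helicase. The 241 bp interval at 69671280 to 69671520 lay in Eif4a1 as well, and the 201 bp interval at 69655444 to 69655644 in Sox15. Genes of similar length had a median of 1 interval, and 4.81% of 748 had 5 or more.

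**Figure D2:**
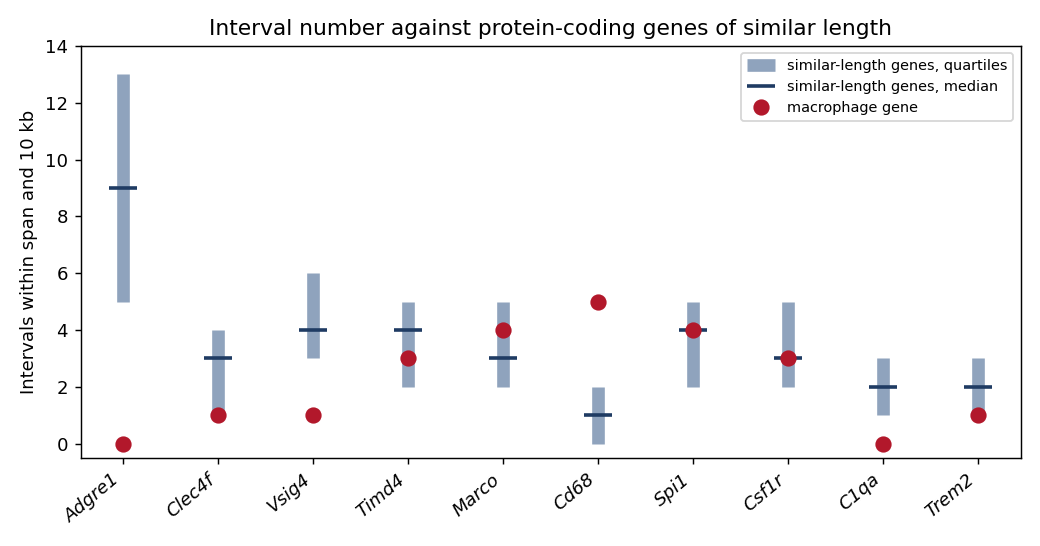
Number of intervals within the span and 10 kb for each macrophage gene (red points), beside the median (dash) and quartiles (bar) of protein-coding genes of similar length (shorter at least 0.8 times the longer). Adgre1, Vsig4 and C1qa lay below the lower quartile, Cd68 above the upper one, and the other 6 genes within the quartiles.

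Set beside genes of their own length, 6 of the 10 genes had fewer intervals than the median of similar-length genes. Marco and Cd68 had more, and Spi1 and Csf1r had the same number. Inside the spans, Spi1 and Csf1r were above that median, 5 genes were below it and 3 were equal to it. The share of similar-length genes with no more intervals ran from 1.71% for Adgre1 to 98.7% for Cd68, most of whose intervals lay in neighbouring genes.

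The distance from the genes to the next interval also varied. Outside Cd68 the first intervals lay 0.051 kb from the upper end and 1.41 kb from the lower end. For Clec4f they lay 7.8 and 17.4 kb away, for Trem2 9.26 and 56.7 kb, and for Vsig4 7.37 and 36.4 kb. Around Spi1 the first intervals outside the gene were 11.7 kb below and 37.3 kb above, and around Csf1r 28.2 and 45.9 kb.

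**Figure D3:**
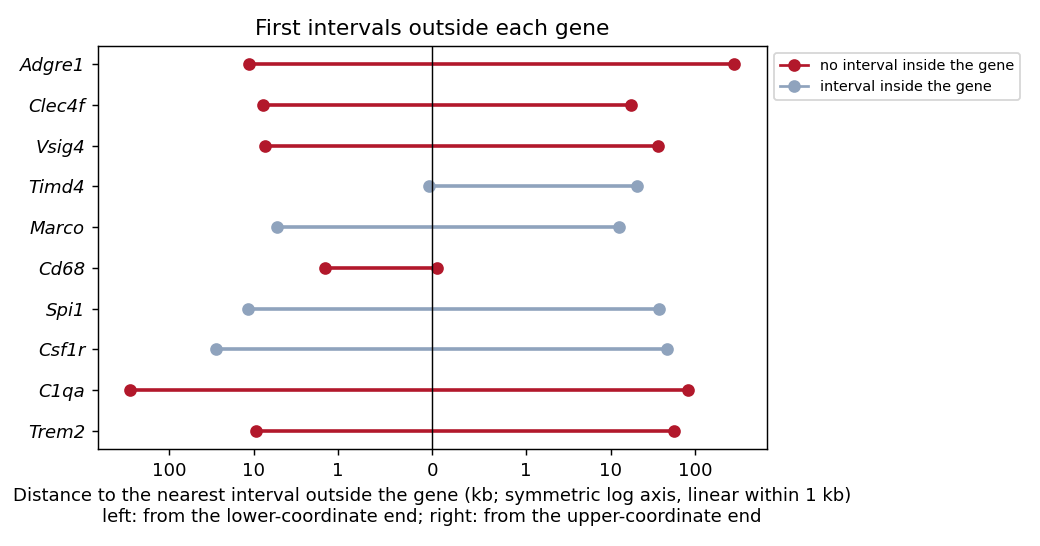
Distance in kb from each end of a gene to the first interval outside it, on a symmetric log axis that is linear within 1 kb; red lines are genes without an interval inside. The lines reach 286 kb above Adgre1 and 293 kb below C1qa, and both ends lie within 1.41 kb for Cd68.

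The widths of the 22 intervals ran from 201 to 334 bp, with a median of 211 bp. The narrowest width of the list, 201 bp, was that of 7 of them (31.8%), beside 46.2% of all intervals, and this difference was not tested. The 4 intervals of Spi1 were 202 to 250 bp wide, beside a median of 203 bp over the whole list. The promoter intervals of Timd4 and Cd68 were both exactly 201 bp, and the Marco interval just inside the start was 244 bp. Inside genes 8 of 10 intervals were wider than 201 bp, and in the flanks 7 of 12.

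A further 40 genes known from macrophages were read in the same way. Within 10 kb, 36 of them had an interval (90.0%, beside 83.9% of protein-coding genes), and 20 had one at an end (50.0%, beside 61.5%). Their median was 3 intervals, as for all protein-coding genes, with a range from 0 to 18. Compared with genes of their own length, 19 had more than the median, 16 fewer and 5 the same number. Many of the 40 are also expressed by other liver cells, so an interval at them is not tied to macrophages.

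The most intervals were at Cd36, a fatty acid and oxidised lipoprotein receptor that hepatocytes and endothelium also use, with 18 against a median of 8 for its length. Mertk, a receptor for dying cells, had 12 against 7, and Axl, a receptor of the same family, had 7 against 4. The scavenger receptor gene Msr1 had 8 against 7, and Ptprc, which encodes the pan-leukocyte antigen CD45, had 8 against 8. No interval was found within 10 kb of C1qb and C1qc, which lie in the same stretch as C1qa, of Cd163, the haemoglobin scavenger receptor, or of the integrin gene Itgax. Cd163 and Itgax had their nearest intervals 31053 and 57633 bp away.

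By role, in groups formed after the values were seen, the transcription factor genes Nr1h3, Maf, Irf8 and Id3 each had an interval at an end, with 4 to 6 intervals. So had each of the 4 genes of lipid-associated macrophages, Gpnmb, Cd9, Spp1 and Lgals3 (3 to 6), and the heme and iron genes Hmox1 and Slc40a1 (6 each). Inside the gene, Hmox1 had 1 of its 6 intervals, Slc40a1 2 of 6 and Id3 0 of 4. Among integrin, chemokine and cytokine receptor genes, Itgam, Itgax, Cx3cr1, Ccr2 and Csf2rb, the range was 0 to 2, and only Cx3cr1 had an interval at an end. Among 8 scavenger and phagocytic receptor genes the median was 6.5 and 3 had an interval at an end. The groups were not matched for gene length. Cd36, Mertk and Msr1 span 107, 104 and 99.5 kb, and genes of their length had medians of 8, 7 and 7. In the remaining groups, an interval at an end was found for 2 of 5 genes of innate and Fc receptors and adaptors and 2 of 4 of lysosomal and killing proteins. It was found for 1 of 5 other leukocyte genes and 0 of 2 complement genes. Of all protein-coding genes 61.5% had one at an end. These groups, chosen with the values in view, were not tested, and several of the genes named act in hepatocytes or other cells of the liver as well.

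**Figure D4:**
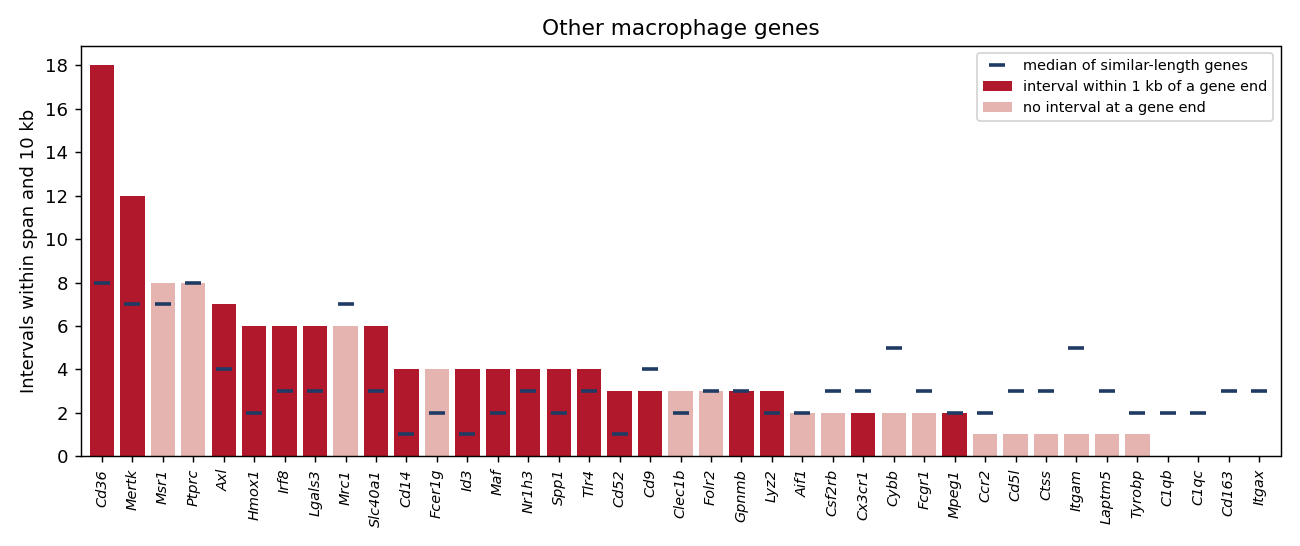
Number of intervals within the span and 10 kb for 39 of the 40 other macrophage genes (bars, dark where an interval lay within 1 kb of an end), with the median of genes of similar length as a dash. Counts run from 18 at Cd36 to 0 at C1qb, C1qc, Cd163 and Itgax.

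The labelled tissue was checked with markers of its main cell types. All 15 hepatocyte genes had an interval within 10 kb (83.9% of protein-coding genes) and 13 had one at an end (61.5%), the exceptions being Fgb and Serpinc1. Inside the span 11 of the 15 had one, beside 69.1% of protein-coding genes. Promoter windows were matched for 11 of these genes and overlapped for 4, beside 37.0% of all windows. The 10 genes of sinusoidal endothelium all had an interval within 10 kb, with a median of 6.5 beside 3 for protein-coding genes. They were also longer, with a median of 36.3 kb against 17.2 kb. Compared with genes of their own length, 8 had more intervals than the median and 2 the same number. At an end 6 had one, a share near that of all protein-coding genes, without Clec4g, Oit3, Pecam1 and Stab2. No difference between these lists and the macrophage genes was tested.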

How the data were processed

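ATAC-seq intervals from 6 liver libraries (3 per strain) were read from the authors' deposited list of positions on mm10. It has no unit of signal, and no column named a library. fastp, Bowtie2 and HOMER are named in the submitters' processing notes. Not given in the sources used here were versions, duplicate filter, read-end shift, peak threshold and merging rule, and the number of weak sites listed depends on that threshold. Starts were converted to 1-based positions.

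Genes were RefSeq spans of GRCm38.p6 (49943 genes, of which 21887 protein-coding). Exons and introns were not separated, and strand came from the promoter table where matched. An interval counted where it overlapped by at least 1 bp. Overlap counting was tested on simulated intervals. Python 3.11.15, pandas 2.3.3 and scipy 1.17.1 were used. With positions only, no test was run.

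The members and lists were chosen with earlier results of these data known. Named were the 10 members, of 40 further macrophage genes the 5 with the most intervals and those with none, genes under or nearer to a member's interval, and markers without an interval at an end. Genes named by role or as neighbours in a stretch were chosen after their values were seen. A few listed genes are not reported here by name. Alternatives were other flanks, end windows, length ranges and interval lists.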

Additional observations from a re-analysis of the deposited data

How the results depend on the processing

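No paired analysis was possible because the deposited list carries no value per library; for the same reason no replicate was left out and the strains were not compared. Flanks set most values. With 0, 5 and 50 kb, 4, 5 and 9 of the 10 macrophage genes had an interval (8 with 10 kb), beside 69.1%, 80.0% and 92.7% of protein-coding genes (83.9%), the intervals numbered 10, 13 and 57 (22), and the median was 0, 1 and 5 (2), beside 1, 2 and 8 over protein-coding genes (3). Without intervals of 201 bp, the median was 1.5 beside 2, intervals at an end were found for 2 of the 10 genes (4 with the full list) beside 51.7% of protein-coding genes, and 11 of the 40 further genes had one (20). The median share of similar-length genes with no more intervals than the macrophage gene was 42.9%. It became 42.7% with lengths of 0.5 to 2 times, 43.7% against all protein-coding genes, 50.6% with 0 kb, 29.4% with 50 kb and 54.6% without intervals of 201 bp. For single genes the share changed for each of the 10 with 0 kb, with 50 kb, without intervals of 201 bp and against all protein-coding genes. These changes were not tested. Against all protein-coding genes, Adgre1 went from 1.71% to 16.0% and Cd68 from 98.7% to 77.7%, while Clec4f went only from 27.8% to 29.1%. Timd4 went from 48.5% to 18.2% with 50 kb, and without intervals of 201 bp Vsig4 went from 13.4% to 26.4%, Trem2 from 37.3% to 53.8% and Adgre1 from 1.71% to 4.27%. Interval centres and joined intervals left the counts of the 10 macrophage genes as they were. By interval centres, 19 of the 40 further genes had one at an end (20 by overlap). With end windows of 500 bp and 5 kb, 4 and 5 of the 10 genes had one, beside 56.0% and 76.8% of protein-coding genes. Of the 40 further genes, 17 and 29 had one with these end windows. Intervals nearest to the gene among protein-coding genes, an alternative chosen after the data were seen, numbered 18, and 8 genes still had one. Without read counts, depth cannot be weighed for any interval.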

Other observations

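Genes of other blood cells were read with the same windows. Of 10 lymphocyte genes, 6 had an interval within 10 kb (83.9% of protein-coding genes) and 4 had one at an end (61.5%). The B cell factor gene Ebf1 had 13, against a median of 17.5 for its length of 390 kb, and Cd4 had 6 against 3. Cd3d, Cd8a, Il7r and Ms4a1 had none, and Nkg7 had none at an end. Beside the same shares, 4 of 8 neutrophil genes had an interval within 10 kb and 2, Elane and S100a8, had one at an end, without Csf3r, Cxcr2, Ly6g, Mpo, Retnlg and S100a9. Elane, a gene of 1.91 kb, had 6 intervals against a median of 1, and S100a8 had 4 against 0. Each of these 2 genes had only 1 interval inside the span, and the others lay in the 10 kb flanks. Both lists held shorter genes, with median lengths of 8.81 kb (lymphocyte) and 3.48 kb (neutrophil) against 17.2 kb for protein-coding genes. Compared with genes of their own length, 3 lymphocyte genes had more intervals than the median and 7 fewer. For neutrophil genes these numbers were 3 and 5, and no difference was tested.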
